A study of Mus musculus with 9 samples.

Results

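Open chromatin at the planar cell polarity genes *Vangl1*, *Vangl2*, *Celsr1*, *Celsr2*, *Fzd3*, *Fzd6*, *Dvl2*, *Ptk7*, *Scrib* and *Prickle1* was read from 9 ATAC-seq peak lists of the embryonic mouse cochlea. A peak belonged to one of these 10 genes when its summit lay nearest, and within 500 kb, to a start site of a protein-coding transcript of that gene. Under this rule 286 of 286921 peaks were members, and merging peaks within 100 bp of each other across the samples gave 62 member regions of 69415 regions in all. ATAC-seq marks DNA that a transposase can reach, so a peak describes accessible chromatin and not the level of a transcript, and nearness to a start site does not show which gene a region serves.

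The cells came from cochlear ducts of heterozygous Sox2-EGFP embryos, in which EGFP is inserted at the Sox2 locus and so marks the prosensory cells that give rise to hair cells and supporting cells. Ducts of a litter were pooled, the spiral ganglion was dissected away, and cells with the highest EGFP signal (Sox2-EGFP+) or the lowest (Sox2-EGFP-) were sorted, with cells of low EGFP signal left out. Sox2-EGFP+ cells gave 2 samples for each embryonic stage (E12, E14.5, E16), and Sox2-EGFP- cells gave 1 sample for E14.5 and 2 for E16. All of these cells carry the knock-in allele, which takes the place of a Sox2 coding sequence. Sox2-EGFP- cells are the fraction of the dissected duct with the lowest EGFP signal rather than a defined cell type. Samples are called by their titles, since a separate cell type field names the opposite population for 3 of the 4 E16 samples (Sox2-EGFP+ replicate 2 and both Sox2-EGFP- replicates).

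Planar cell polarity is the coordinated orientation of cells within the plane of an epithelium. In the general model, its core proteins gather on opposite sides of each cell. Frizzled receptors and Dishevelled lie opposite Vangl and Prickle, and the Celsr cadherins join neighbouring cells across the boundary. Whether the cochlea keeps this arrangement was not examined here. In the cochlea planar cell polarity orients the hair bundles and is needed for convergent extension. There, prosensory cells intercalate so that the duct lengthens while the sensory strip becomes narrow. In some mouse mutants of core members the ducts are short and wide, with turned hair bundles.

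The windows below are 299 bp of mm9 sequence (plus strand) around the summits of regions away from start sites on which the comparisons turned. *Vangl2* stands for the regions called in Sox2-EGFP+ lists alone in which the ranks overlapped. Capitals mark exact matches, on either strand, to the Gata motif AGATAA, the Tead motif GGAATG, the Sox motif ACAATG, the Sox or Tcf motif ACAAAG, the sine oculis homeobox motif GGTATCA or its variant TCAGNTTC, the Grhl motif AACCNGTT or the Rfx motif GTTGCCA.
Fzd3 chr14:65864346-65864644: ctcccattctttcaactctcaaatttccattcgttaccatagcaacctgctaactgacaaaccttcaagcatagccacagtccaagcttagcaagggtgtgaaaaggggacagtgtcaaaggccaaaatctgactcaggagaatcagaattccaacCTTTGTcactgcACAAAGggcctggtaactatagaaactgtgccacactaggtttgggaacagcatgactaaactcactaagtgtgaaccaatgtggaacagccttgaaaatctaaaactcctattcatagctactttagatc
Vangl1 chr3:101939466-101939764: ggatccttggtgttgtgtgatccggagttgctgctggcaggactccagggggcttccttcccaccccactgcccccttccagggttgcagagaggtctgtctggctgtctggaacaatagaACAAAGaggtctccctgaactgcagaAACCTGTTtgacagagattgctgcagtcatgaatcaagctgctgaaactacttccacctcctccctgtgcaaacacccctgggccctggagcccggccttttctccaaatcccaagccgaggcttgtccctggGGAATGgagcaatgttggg
Vangl1 chr3:101963400-101963698: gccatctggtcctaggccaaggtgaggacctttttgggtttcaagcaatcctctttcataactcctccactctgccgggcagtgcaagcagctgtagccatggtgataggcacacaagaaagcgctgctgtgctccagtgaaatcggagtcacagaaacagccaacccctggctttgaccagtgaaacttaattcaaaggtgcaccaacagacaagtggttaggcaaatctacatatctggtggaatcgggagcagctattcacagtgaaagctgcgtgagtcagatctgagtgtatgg
Vangl2 chr1:173947044-173947342: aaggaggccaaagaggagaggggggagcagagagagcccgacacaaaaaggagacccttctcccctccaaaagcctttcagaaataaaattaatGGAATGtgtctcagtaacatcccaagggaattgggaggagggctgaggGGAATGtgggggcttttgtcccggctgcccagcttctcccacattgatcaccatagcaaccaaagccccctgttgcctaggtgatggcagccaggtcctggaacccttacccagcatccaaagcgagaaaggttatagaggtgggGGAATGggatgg
Prickle1 chr15:93422490-93422788: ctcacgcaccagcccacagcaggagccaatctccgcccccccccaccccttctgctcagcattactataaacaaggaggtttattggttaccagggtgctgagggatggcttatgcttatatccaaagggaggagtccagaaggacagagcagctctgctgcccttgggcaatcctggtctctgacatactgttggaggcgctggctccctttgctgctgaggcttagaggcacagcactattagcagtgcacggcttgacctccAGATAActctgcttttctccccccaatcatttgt
The *Fzd3* window holds ACAAAG on both strands, the *Vangl1* window at chr3:101939466-101939764 holds 1 match each to the Tead, the Sox or Tcf and the Grhl motif, and the *Vangl2* window holds GGAATG 3 times. The second *Vangl1* window holds no match, and the *Prickle1* window holds AGATAA. None of the 5 printed windows overlaps an annotated exon. The window of the called *Scrib* region, not printed, overlaps annotated exon sequence and holds no match. Such letters are common: within 0.2 kb of the summit on either side, ACAAAG occurred in 16 of the 50 member regions over 1 kb from a start site (32.0%) and in 39.5% of the 54335 such regions with a full window. GGAATG occurred in 28.0% of the member regions and 25.4% of all, ACAATG in 26.0% of the member regions and 25.0% of all, AGATAA in 7 of the 50 and 20.5%, and GTTGCCA in 2.00% and 6.29%. TCAGNTTC occurred in 9 of the 50 (18.0%) against 10.2%, AACCNGTT in 4 (8.00%) against 3.85%, and GGTATCA in 0 against 3.21%. The median G and C content of these windows was 52.9% for the member regions and 49.6% for all.

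The 9 lists differed in length, with 13817 and 7577 peaks at E12, 66332 and 22962 (E14.5) and 39314 and 65870 (E16) for Sox2-EGFP+ replicates 1 and 2, and 23302 to 23899 for the Sox2-EGFP- samples. Member peaks numbered 15 and 5 at E12, between 29 and 59 in the later Sox2-EGFP+ lists and between 24 and 27 in the Sox2-EGFP- lists, or 6.60 to 12.6 per 10000 peaks. Every region had a peak in at least 2 samples of each cell type it was found in, because the deposited peaks had been filtered for this. The lists hold no reads, so depth could not be read from them. The study reports fewer reads for both E12 samples than for any later sample. It also reports a far larger share of reads in peaks for E14.5 Sox2-EGFP+ replicate 1 than for replicate 2. That share was larger in E14.5 replicate 1 and both E16 replicates of Sox2-EGFP+ cells than in any Sox2-EGFP- sample. In E14.5 Sox2-EGFP+ replicate 2 it was smaller than in any Sox2-EGFP- sample. Cutting lists to one length, as done below, does not even out this share. A peak missing from a short list is not a sign of closed chromatin. To compare cell types, the E14.5 and E16 lists were therefore cut to their 22962 highest peaks by -log10 p, and ranks (1 is the highest peak) were compared within the cut lists, with an absent peak placed 1 rank after the last. A higher rank is a smaller number, so a negative difference in mean log2 rank (Sox2-EGFP+ minus Sox2-EGFP-) means a higher rank in Sox2-EGFP+ cells. In the cut lists, regions of 7 prosensory marker genes had 28 to 41 peaks in the 4 Sox2-EGFP+ samples and 18 to 20 in the 3 Sox2-EGFP- samples, and 5 epithelial genes had 17 to 19 and 7 to 9. Peaks of 6 mesenchymal genes numbered 1 to 6 and 20 to 21, so the markers sort the samples as the titles do, with more mesenchymal peaks in every Sox2-EGFP- sample. Glial genes (4) had 2 to 6 and 2 to 3 peaks, neuronal genes (3) 4 to 5 and 2 to 3, endothelial genes (4) 3 to 5 and 5 to 8, macrophage genes (5) 0 to 1 and 1, and blood genes (3) 1 to 3 and 3. In sorted pools, a region open in more cells and a region more open in each cell cannot be told apart.

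The start sites of all 10 genes were open in both cell types, and most regions away from them had peaks in Sox2-EGFP+ lists alone. Of the 62 regions, 39 were found in Sox2-EGFP+ lists alone, 19 in both and 4 in Sox2-EGFP- lists alone; over all regions of the series the shares were 65.5%, 28.8% and 5.63%. The 12 regions within 1 kb of a start site were all found in both cell types, as were 80.7% of all such regions. Of the 50 regions farther away, 39 were found in Sox2-EGFP+ lists alone, 7 in both and 4 in Sox2-EGFP- lists alone, against 78.6% of all such regions in Sox2-EGFP+ lists alone and 6.91% in Sox2-EGFP- lists alone. These counts depend on list length and on 6 against 3 samples: 13 of the 62 regions rested on the E14.5 replicate 1 and E16 replicate 2 lists, the longest, alone (35.4% of all regions did). Without those lists 49 member regions were left, 26 in Sox2-EGFP+ lists alone and 5 in Sox2-EGFP- lists alone (46.6% and 11.4% of all 44821 regions then left). In cut E14.5 and E16 lists 20 of 43 were in Sox2-EGFP+ lists alone and 5 in Sox2-EGFP- lists alone (38.0% and 16.2% of all regions). By the feature under the summit, 31 regions lay in introns, 25 were intergenic, 5 lay in UTRs and 1 in a coding exon, with a median width of 566 bp (577 bp for all regions).

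**Figure D1:**
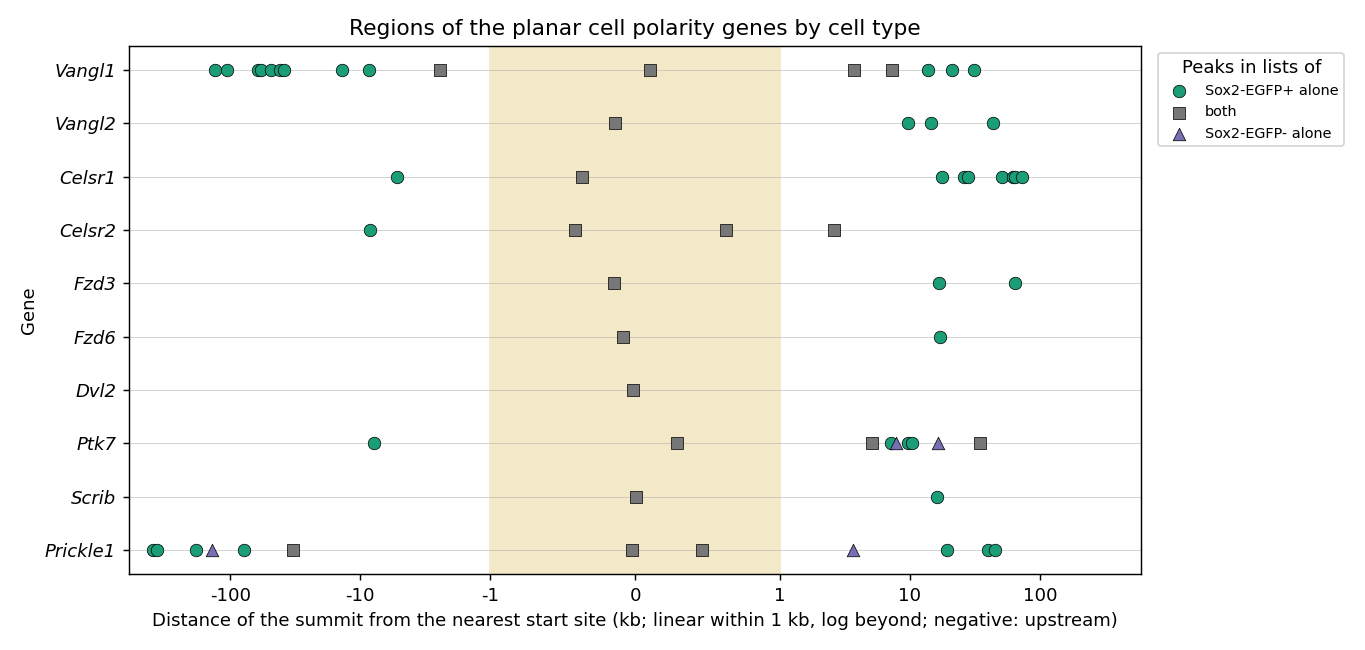
Each mark is 1 of the 62 regions, placed by the distance of its summit from the nearest start site of its gene (kb; linear within 1 kb and logarithmic beyond, negative upstream), with 1 row per gene. Circles are regions with peaks in Sox2-EGFP+ lists alone, squares in lists of both cell types and triangles in Sox2-EGFP- lists alone; the shaded band within 1 kb holds squares alone, and Vangl1 (16 regions) and Prickle1 (12) spread the widest.

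The genes differed in how many regions they held. *Vangl1* had 16 regions, as many or more than which were held by 2.98% of the 17076 genes with a region, *Prickle1* had 12 (6.22%), and *Celsr1* and *Ptk7* had 9 each (10.9%). *Vangl2* and *Celsr2* had 4 regions each, *Fzd3* had 3, *Fzd6* and *Scrib* had 2 each, and *Dvl2* had 1; the median gene had 2. *Prickle1* regions reached 393 kb upstream of a start site.

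In the cell type comparison, 43 of the 62 regions had a peak in at least 1 cut list, 20 of them through Sox2-EGFP+ samples alone and 5 through Sox2-EGFP- samples alone, so that for these 25 the direction was fixed by their entry. A region was called when the ranks of the 4 Sox2-EGFP+ and the 3 Sox2-EGFP- samples did not overlap. Higher ranks in Sox2-EGFP+ cells were found at 5 member regions (background 8.52% of 38530 regions tested) and lower ranks at 3 (background 10.6%). Within 1 kb of a start site 1 of 12 was higher (background 5.21%) and 2 were lower (background 8.91%). Farther away 4 of 31 were higher (background 10.3%) and 1 was lower (background 11.6%). Of the 5 higher regions 3 had entered through Sox2-EGFP+ lists alone, and of the 3 lower regions 1 through Sox2-EGFP- lists alone; their ranks are given as a description, with no test. Beside these backgrounds the counts of the 10 genes were not read as a property of the list. A two-sided exact permutation test of mean log2 rank over the 35 splits gave no member region an adjusted p (Benjamini-Hochberg over all regions) under 0.232, while 4751 of the 38530 regions had an unadjusted p under 0.05. The calls below are thus separations of 7 samples, not findings past a genome-wide threshold. With lists cut to 7577 peaks, the shortest of the 9, the calls at the *Celsr2* coding exon and the *Fzd3* start site were kept. The intronic *Fzd3* call (-0.14), the *Vangl1* call at 7.30 kb (-0.24) and the *Scrib* call (-0.00) were lost to overlap. The *Vangl1* region at 31.2 kb, the *Dvl2* start site and the *Prickle1* region at 3.68 kb had no E14.5 or E16 peak inside that cut. Those regions dropped out of the comparison. With samples of the same stage and number taken as 3 pairs, 9 member regions were higher and 4 lower in every pair (4713 and 6531 of all 38530 regions tested).

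**Figure D2:**
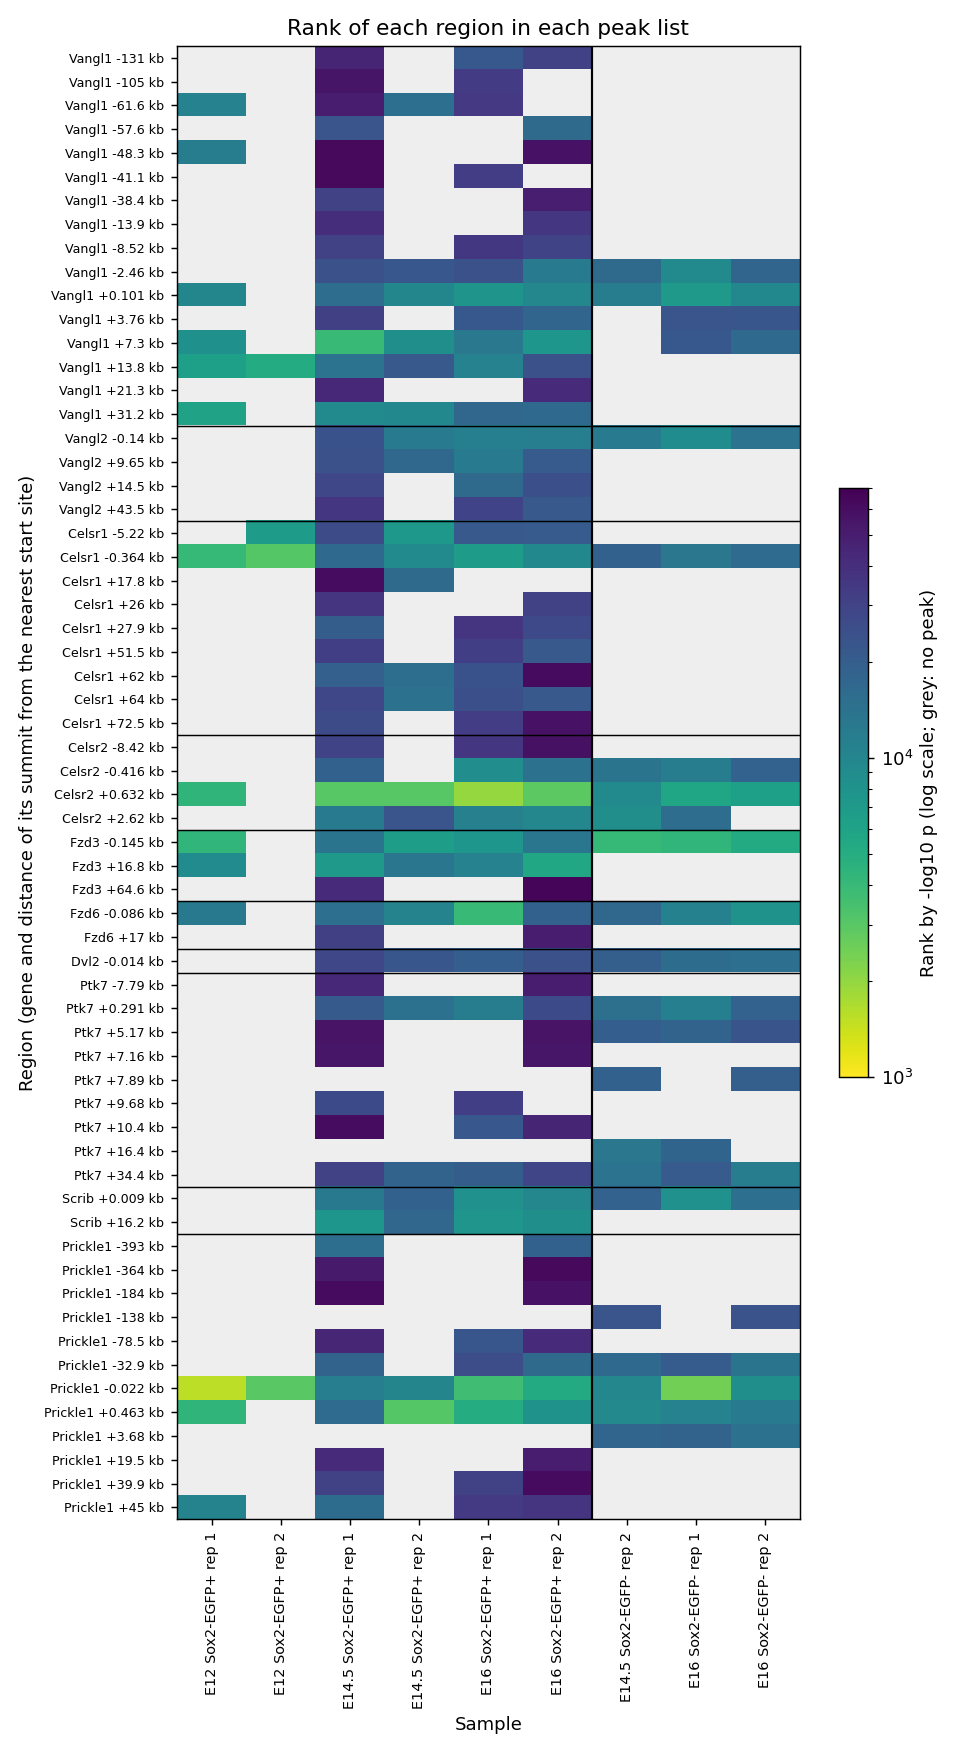
Rank by -log10 p (colour, log scale, yellow highest) of each of the 62 regions (rows, named by gene and distance of the summit from the nearest start site) in each full list (columns, Sox2-EGFP+ left of the line and Sox2-EGFP- right of it), with grey for no peak. The rows at start sites are filled on both sides of the line, and most rows away from them are grey in the 3 Sox2-EGFP- columns.

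*Celsr1* and *Celsr2* encode atypical cadherins that bridge neighbouring cells. The highest ranks of any member region in the E14.5 and E16 Sox2-EGFP+ lists were at *Celsr2*, over a coding exon 632 bp downstream of an internal start site (chr3:108204553-108205369). It ranked 3019 and 3017 in the E14.5 Sox2-EGFP+ samples and 1944 and 2900 at E16, against 9351 in the E14.5 Sox2-EGFP- sample and 5749 and 6314 at E16. All 4 Sox2-EGFP+ ranks were ahead of all 3 Sox2-EGFP- ranks, with a mean log2 rank of 11.39 ± 0.31 (SD, n = 4) and 12.77 ± 0.37 (SD, n = 3), a difference of -1.38 (exact permutation p = 0.0286, adjusted p = 0.232). When lists were ordered by fold enrichment instead, the difference was -0.00 and the ranks overlapped. The region at the first start site of *Celsr2* (chr3:108217975-108219159) had ranks from 8707 to 18579 in 3 of the 4 later Sox2-EGFP+ lists, no peak in E14.5 replicate 2, and 11764 to 18455 in the Sox2-EGFP- lists, which overlapped. Its best ranked region away from start sites, 2.62 kb past the most downstream one and beyond the end of the gene, was also shared, at 9848 to 22775 in the Sox2-EGFP+ lists and at 8538 and 15408 in 2 Sox2-EGFP- lists.

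At *Celsr1* the start site (chr15:85863247-85865092) had a peak in all 9 samples. It ranked 4098 and 3072 at E12, 16280 and 9198 in E14.5 Sox2-EGFP+ cells, 6808 and 9648 in E16 Sox2-EGFP+ cells, 18643 in E14.5 Sox2-EGFP- cells and 12892 and 15794 in E16 Sox2-EGFP- cells. The E14.5 replicate 1 rank fell among the Sox2-EGFP- ranks, so the cell types overlapped (difference in mean log2 rank -0.65, exact permutation p = 0.143). The other 8 *Celsr1* regions were found in Sox2-EGFP+ lists alone, 7 of them in introns. The best ranked, 5.22 kb upstream (chr15:85869016-85869693), had ranks of 6633 in E12 replicate 2, 26580 and 7316 at E14.5 and 21224 and 20557 at E16. A pair of intronic regions at 62.0 and 64.0 kb (chr15:85801935-85802383 and chr15:85799863-85800580) each had a peak in the same 4 later Sox2-EGFP+ lists, with ranks from 15067 to 62209 and from 14416 to 28196. Each of the 3 fell outside the cut in at least 1 Sox2-EGFP+ list and so overlapped.

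*Fzd3* and *Fzd6* encode Frizzled receptors that act together in orienting hair cells. At *Fzd3* the start site and an intronic region went in opposite directions. The intronic region 16.8 kb into the gene (chr14:65864142-65864692), with the paired ACAAAG shown above, ranked 8985 in E12 replicate 1, 7114 and 13169 at E14.5 and 10705 and 5530 at E16, and no Sox2-EGFP- list held it. Its mean log2 rank was 13.08 ± 0.57 (SD, n = 4) in the later Sox2-EGFP+ samples, a difference of -1.41 from absence. The fold enrichment of this peak over local background ran from 4.66 in E14.5 replicate 2 to 15.1 in E14.5 replicate 1.

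At the *Fzd3* start site (chr14:65880537-65881741) the Sox2-EGFP- samples ranked higher, at 4045 (E14.5), 4262 and 5205 (E16), against 13708 and 6546 (E14.5) and 7496 and 13216 (E16) in Sox2-EGFP+ cells. The ranks did not overlap, with a difference in mean log2 rank of 1.12 (13.25 ± 0.55, n = 4, and 12.13 ± 0.19, n = 3, SD; exact permutation p = 0.0571, adjusted p = 0.312). In full lists, with ranks divided by list length, the difference was 0.20 and the ranks overlapped. The E12 replicate 1 rank was 4266. *Fzd3* counted 2 peaks in each of the 4 Sox2-EGFP+ cut lists and 1 in each of the 3 Sox2-EGFP- lists.

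*Fzd6* had a start site region (chr15:38837406-38838557) with ranks from 3947 to 18656 in the later Sox2-EGFP+ lists and from 8006 to 17069 in the Sox2-EGFP- lists, which overlapped (difference -0.14, exact permutation p = 0.857). Its other region, an intron site 16981 bp in, had a peak at rank 31275 in E14.5 replicate 1 and 49980 in E16 replicate 2 alone, the longest lists.

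**Figure D3:**
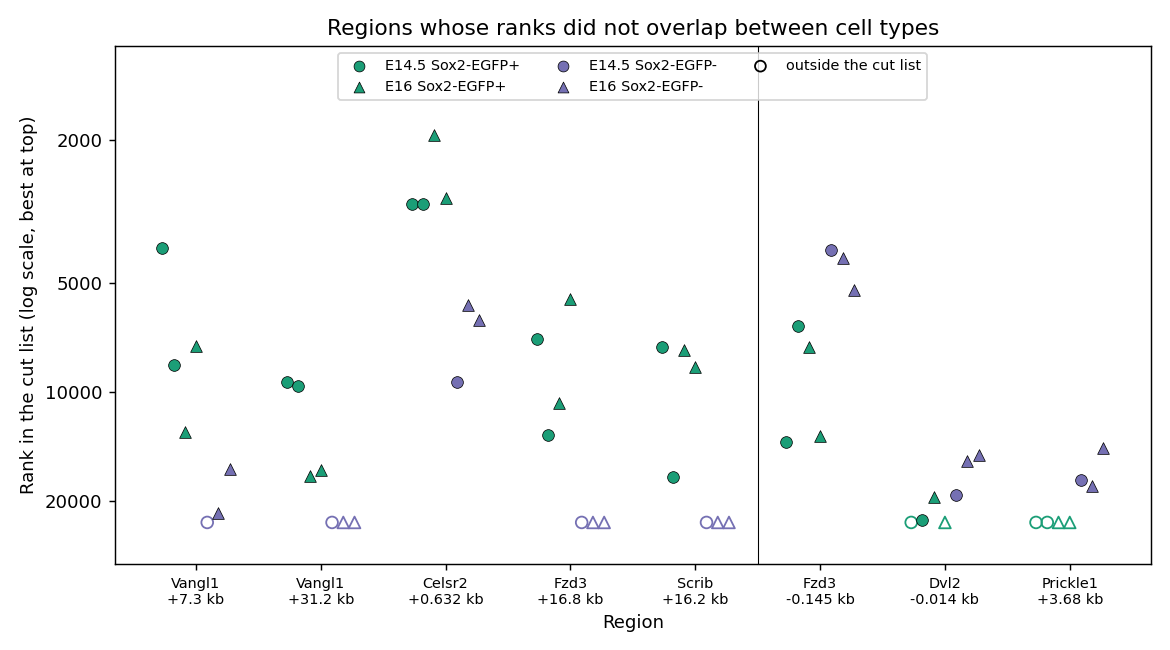
Rank in the cut list (log scale, best at the top) of the 8 member regions whose ranks did not overlap, in the 4 Sox2-EGFP+ (green) and 3 Sox2-EGFP- (purple) samples of E14.5 (circles) and E16 (triangles); open marks lie outside the cut. The 5 regions left of the line were higher in Sox2-EGFP+ cells and the 3 right of it were lower, and the Celsr2 region was the only one of the 5 with a filled mark in all 7 samples.

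*Vangl1* and *Vangl2* encode transmembrane proteins of the core set. Loss of *Vangl2* function shortens the cochlear duct. *Vangl1* held the most regions, 12 in Sox2-EGFP+ lists alone and 4 in both. An intronic region 7.30 kb downstream of a start site (chr3:101962827-101964047) ranked 8320 in E12 replicate 1, 3991 and 8388 at E14.5 and 12870 and 7469 at E16 in Sox2-EGFP+ cells. In Sox2-EGFP- cells it had no peak at E14.5 and ranked 21690 and 16348 at E16, behind every later Sox2-EGFP+ sample. The means of log2 rank were 12.88 ± 0.70 (SD, n = 4) and 14.30 ± 0.26 (SD, n = 3), a difference of -1.42 (exact permutation p = 0.0571, adjusted p = 0.312).

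A second *Vangl1* region, 31.2 kb from the nearest *Vangl1* start site and within an intron of *Casq2* (chr3:101939296-101940079), was found in Sox2-EGFP+ lists alone. Its ranks were 6083 in E12 replicate 1, 9348 and 9615 at E14.5 and 17092 and 16385 at E16, with a difference in mean log2 rank of -0.87 from absence. The E14.5 ranks were ahead of the E16 ranks, with 2 samples each and no test. With only peaks of -log10 q of at least 5 the cell types overlapped (-0.34). With start sites of all transcripts the region was no longer assigned to *Vangl1*. An intergenic region at 13.8 kb (chr3:101956208-101957216) was the only *Vangl1* region that every Sox2-EGFP+ list held, at 6405 and 5099 (E12), 13928 and 21226 (E14.5) and 10674 and 24569 (E16). The last of these ranks fell outside the cut, where all 3 Sox2-EGFP- samples were, so the cell types overlapped (difference -0.49). A region 61.6 kb upstream (chr3:102070106-102070498) had peaks in 4 Sox2-EGFP+ samples, at 10559, 50625, 14946 and 34362. At the first start site (chr3:102007673-102008724), ranks of 7719 to 15234 in Sox2-EGFP+ and 7111 to 11852 in Sox2-EGFP- lists overlapped (difference 0.14, exact permutation p = 0.571).

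*Vangl2* had no E12 peak in any of its 4 regions. Its start site (chr1:173956568-173957763) ranked 24034 and 12180 (E14.5) and 11279 and 11432 (E16) in Sox2-EGFP+ cells and 12444, 8880 and 13922 in Sox2-EGFP- cells, which overlapped (difference 0.26, exact permutation p = 0.600). The intronic region with 3 GGAATG matches, 9.65 kb downstream (chr1:173946809-173947878), had peaks at 24322 and 17044 (E14.5) and 12450 and 20526 (E16) in Sox2-EGFP+ lists and none in Sox2-EGFP- lists. It fell outside the cut in E14.5 replicate 1 and so overlapped (difference -0.37). The regions 14453 and 43450 bp downstream were each found in 3 Sox2-EGFP+ lists alone, at ranks from 16085 to 35488.

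*Dvl2* and *Prickle1* encode cytoplasmic proteins of the core set, partners of Frizzled and Vangl. The start site was the single region of *Dvl2* (chr11:69813901-69814623), and it ranked low everywhere, at 28150 and 22613 (E14.5) and 19532 and 24500 (E16) in Sox2-EGFP+ cells and 19284, 15495 and 14908 in Sox2-EGFP- cells. Each Sox2-EGFP- rank was ahead of each Sox2-EGFP+ rank (difference 0.42, exact permutation p = 0.0286, adjusted p = 0.232). The direction depended on cutting the lists, since ranks divided by full list length gave a difference of -0.40, and the ranks overlapped when ordered by fold enrichment (0.05) or with only peaks of -log10 q of at least 5 (0.01).

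*Prickle1* had 12 regions over 2 start sites, 7 in Sox2-EGFP+ lists alone, 3 in both and 2 in Sox2-EGFP- lists alone. The upstream start site (chr15:93425682-93427157) had a peak in all 9 samples, with ranks of 1515 and 2953 at E12, 3660 to 11322 in later Sox2-EGFP+ cells and 2456 to 9845 in Sox2-EGFP- cells, which overlapped (difference 0.21, exact permutation p = 0.771). The downstream start site (chr15:93348775-93350136) ranked 3071 to 15741 and 9425 to 11871 (difference -0.68, exact permutation p = 0.314). Between them, 3.68 kb into the gene, lay the 1 member region with a peak in all 3 Sox2-EGFP- lists and in no Sox2-EGFP+ list (chr15:93422297-93422778). It ranked 17560 at E14.5 and 18208 and 14268 at E16, with a difference of 0.47 from absence in Sox2-EGFP+ cells, and was lost to overlap when lists were ordered by fold enrichment (0.13) or held only peaks of -log10 q of at least 5 (0.03). The intron region 32.9 kb upstream of the internal start site was shared, at 16070 to 25653 in 3 later Sox2-EGFP+ and 13728 to 20246 in the Sox2-EGFP- lists. A region at 45.0 kb, in an intron of *Pphln1* (chr15:93304741-93305345), had Sox2-EGFP+ peaks at 10428 (E12 replicate 1), 15697, 33945 and 36468.

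*Scrib* encodes a scaffold of the lateral membrane that binds Vangl, and *Ptk7* a receptor with an inactive kinase domain that takes part in convergent extension. *Scrib* had a shared start site (chr15:75899303-75900612), at 8221 to 18614 in later Sox2-EGFP+ and 8110 to 18308 in Sox2-EGFP- lists, which overlapped (difference -0.15, exact permutation p = 0.857). Its second region (chr15:75864617-75865559) lay 16.2 kb from the nearest *Scrib* start site and past the end of the gene. It had its summit in an intron of *K230010J24Rik* beside annotated exon sequence. It ranked 7506 and 17219 at E14.5 and 7650 and 8504 at E16 in Sox2-EGFP+ cells and was absent from every Sox2-EGFP- and E12 list (difference -1.26 from absence). E14.5 replicate 2, the shortest of the later lists, had the lowest of these ranks. With only peaks of -log10 q of at least 5 the cell types overlapped (-0.72). With start sites of all transcripts the region was no longer assigned to *Scrib*.

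*Ptk7* was the gene with the greatest mean excess of Sox2-EGFP- peaks. Its start site (chr17:46765592-46767446) was shared, at 11760 to 27141 in Sox2-EGFP+ and 11193 to 18421 in Sox2-EGFP- lists (difference 0.22, exact permutation p = 0.486). Of the 8 others, 4 were found in Sox2-EGFP+ lists alone, 2 in both and 2 in Sox2-EGFP- lists alone. The best ranked of them, in an intron at 34.4 kb (chr17:46731517-46732575), had ranks of 30272, 18245, 20086 and 29013 in Sox2-EGFP+ and 13962, 20777 and 11815 in Sox2-EGFP- lists, and overlapped (difference 0.48, exact permutation p = 0.114). The Sox2-EGFP- regions, intronic at 7.89 and 16.4 kb, each had peaks in 2 of the 3 lists, at ranks from 12945 to 19204. The Sox2-EGFP+ regions at 9.68 and 10.4 kb lay wholly within an element of this gene that the study lists as active in the ear, over 468 and 932 bp, and had peaks in 2 and 3 Sox2-EGFP+ lists at ranks from 22257 to 60850. No Sox2-EGFP- list held a peak in either.

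The number of peaks per gene in the cut lists asked the same question for each gene as a whole. Peaks of the 10 genes together numbered 22 and 29 (E14.5) and 27 and 25 (E16) in Sox2-EGFP+ lists and 25, 24 and 24 in Sox2-EGFP- lists, so the totals overlapped. *Fzd3* and *Scrib* each had 2 peaks in all 4 Sox2-EGFP+ lists and 1 in all 3 Sox2-EGFP- lists, the 2 genes of 10 that were higher without overlap (background 6.42% of 16067 genes). *Ptk7* had 1 and 3 (E14.5) and 3 and 0 (E16) peaks in Sox2-EGFP+ lists against 7, 5 and 5 in Sox2-EGFP- lists, the 1 gene that was lower (background 5.15%). The *Ptk7* regions at 5.17, 7.89 and 16.4 kb entered the cut through Sox2-EGFP- lists alone. Part of its excess was thus fixed by that entry, and its counts are given with no test. By the exact permutation test no gene had an adjusted p under 0.286, and 1605 of all genes had an unadjusted p under 0.05. The second peak of *Fzd3* and of *Scrib* was the region at 16.8 and at 16.2 kb, which entered through Sox2-EGFP+ lists alone. Their counts repeat that presence and are given with no test. Ordered by fold enrichment, *Fzd3* and *Scrib* were no longer higher and *Vangl1* was; with lists cut to 7577 peaks none of the 3 calls was left, and in uncut lists *Ptk7* was no longer lower. With same-numbered pairs, *Vangl1* and *Vangl2* joined *Fzd3* and *Scrib* as higher and *Ptk7* was lower (8.03% and 7.77% of all genes). The *Ptk7* peaks lay partly in the same regions: counted by region, a count chosen after the data were seen, *Ptk7* had 1, 2, 3 and 0 against 5, 4 and 3, which overlapped. Counted so, *Vangl1* (5, 6, 6 and 6 against 2, 4 and 4) and *Celsr1* (3, 5, 2 and 4 against 1, 1 and 1) joined *Fzd3* and *Scrib*. By that count 7.21% of all genes were higher and 4.71% lower. The mesenchymal marker peaks given above moved in the same direction as the *Ptk7* peaks, and their part in this difference was not tested.

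By peaks, *Vangl1* (5, 7, 6 and 6 against 2, 4 and 5) and *Celsr1* (3, 6, 2 and 4 against 2, 2 and 2) touched or overlapped. *Vangl2* (0, 3, 3 and 3 against 1, 1 and 2), *Celsr2* (3, 2, 3 and 3 against 4, 4 and 2), *Dvl2* (0, 1, 1 and 0 against 1, 1 and 1) and *Prickle1* (5, 2, 4 and 4 against 5, 4 and 4) also overlapped. *Fzd6* had 1 peak in every list. Leaving out the 3 E16 samples whose cell type field differs from the title left 3 samples against 1, where 8 member regions were higher and 11 lower (16.1% and 29.0% of all regions) and 3 genes were higher and 2 lower (10.9% and 13.7% of all genes). Taking samples away cannot undo a separation, so these counts say nothing about how firm the calls are.

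**Figure D4:**
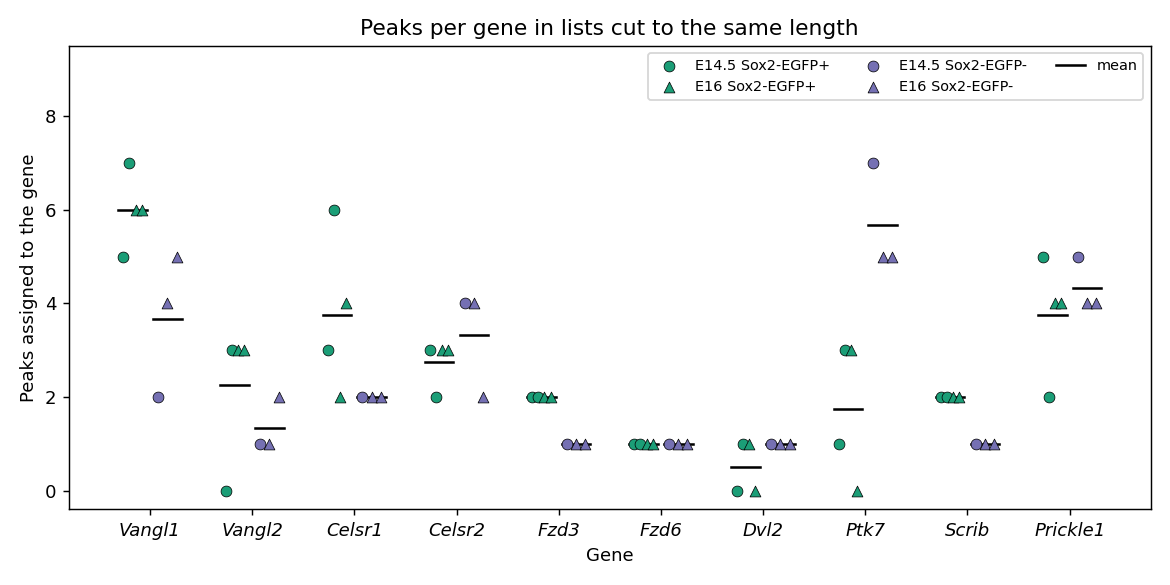
Peaks assigned to each gene in the E14.5 (circles) and E16 (triangles) lists cut to 22962 peaks, with Sox2-EGFP+ samples in green, Sox2-EGFP- samples in purple and the group mean as a bar. Fzd3 and Scrib sat at 2 against 1 in every sample, and Ptk7 at 0 to 3 against 5 to 7.

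Stage was compared in Sox2-EGFP+ cells alone, since E12 has no Sox2-EGFP- sample. The E12 lists held peaks at 15 of the 62 regions, 8 of them among the 50 over 1 kb from a start site, against 20.1% of all regions and 9.67% of all regions over 1 kb away, and at regions of 6 genes in replicate 1 and 3 genes in replicate 2. No E12 list had a peak at *Vangl2*, *Dvl2*, *Ptk7* or *Scrib*, and every E14.5 and E16 list had a peak at all 10 genes. The E12 lists were the shortest and came from the samples with the fewest reads, so these absences are no sign of closed chromatin. With all 6 lists cut to 7577 peaks, 12 member regions could be compared and 2 samples against 4 could not give an exact permutation p below 0.0667. The ranks were higher at E12 without overlap at 3 regions (background 6.55% of 13681 regions tested) and lower at 1 (background 7.62%), each at that smallest p.

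Higher at E12 were the upstream *Prickle1* start site (1515 and 2953, against 3660 and 5190 at E16 and outside the cut at E14.5), the *Celsr1* start site (4098 and 3072, against 6808 in 1 E16 sample and outside the cut in the other 3) and the *Vangl1* region at 13.8 kb (6405 and 5099, against outside the cut in all 4). The *Vangl1* region had entered through the E12 lists alone, so its direction was fixed by its entry. Lower at E12 was the *Celsr2* region over the coding exon, at 4313 and outside the cut against 1944 to 3019 later. Where the 7577 peak limit was replaced by ranks divided by full list length, 0 of 58 member regions were higher at E12 and 20 were lower, against 0.0290% and 21.7% of all 65508 regions.

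Of 30 other genes of the pathway (ligands, other receptors, Dishevelled and Prickle relatives, effectors, the Fat and Dachsous cadherins, ciliary and regulatory genes), 29 had a peak in the cut lists. *Ror1*, a receptor for *Wnt5a*, was higher in Sox2-EGFP+ cells (2, 6, 2 and 2 peaks against 1, 1 and 1). Its exact permutation p was 0.114 and its adjusted p 0.539. *Wnt11*, a ligand (4, 5, 7 and 5 against 9, 10 and 11), *Fzd1*, a receptor (3, 3, 2 and 3 against 6, 5 and 5), and *Dchs1*, a large cadherin (0, 1, 1 and 0 against 4, 3 and 4), were lower. Each had an exact permutation p of 0.0286, the smallest that 4 samples against 3 can give, and an adjusted p of 0.286. Among all genes 6.42% were higher and 5.15% lower. Of their 229 regions 151 were found in Sox2-EGFP+ lists alone, 51 in both and 27 in Sox2-EGFP- lists alone, and of 125 tested 4 were higher (3.20%) and 16 lower (12.8%) in Sox2-EGFP+ cells, against 8.52% and 10.6% of all regions. The 5 higher and 3 lower of 43 regions of the 10 genes stand beside these values without a test between the lists.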

How the data were processed

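Peak lists of 9 ATAC-seq samples were analysed, 6 of Sox2-EGFP+ cells and 3 of Sox2-EGFP- cells. Per the methods of the study, the authors used Trim Galore for trimming, Bowtie2 for alignment to mm9, Picard and SAMtools for cleaning and MACS2 for peaks, sample by sample, and kept peaks with a counterpart in another sample of the same cell type. The deposited fold enrichment is the ratio of pileup to local background, and the deposited -log10 p and -log10 q come from MACS2 within each sample. The deposited score equals the integer part of 10 times -log10 q in 100.0% of peaks and was not used further. The lists hold no read counts, so the read test of the authors was not repeated.

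Peaks were ranked by -log10 p in each list, assigned to the nearest of the start sites of 51733 protein-coding GENCODE transcripts within 500 kb, and merged at 100 bp with Python 3.11.15, NumPy 2.4.6, pandas 2.3.3 and SciPy 1.17.1; figures used matplotlib 3.10.9. Lists were cut to the shortest list of a comparison. A region or gene was called where ranks or peak numbers of the groups did not overlap, and two-sided exact permutation p-values were adjusted by Benjamini-Hochberg over all regions or genes. The scripts were tested on simulated data. Sox2-EGFP+ replicates of a stage are separate litters, and whether Sox2-EGFP- samples share those litters is not stated. The permutation tests treat the samples as independent, and p-values measure the spread between these samples. Both E16 samples numbered 1 were sequenced apart from the rest. Coordinates are 1-based.

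The genes, other pathway genes, markers and motifs were chosen with earlier results of these data known. Named were the regions at start sites, all called regions, the best ranked region over 1 kb away for each gene by mean rank as a share of list length, and regions of 1 cell type with peaks in at least 4 Sox2-EGFP+ or all 3 Sox2-EGFP- samples. Alternatives covered ranking, cutting, merging, a -log10 q of at least 5, transcripts, distance, pairing and left-out samples.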

Additional observations from a re-analysis of the deposited data

Results flagged for a closer look

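Within the 4 later Sox2-EGFP+ samples, 5 values stood far from the other 3 by a Dixon test. Chance alone does this in about 1 in 20 groups of untied values. That rate does not hold for the *Vangl2* and *Celsr2* peak counts, where the other 3 values tie and the outcome is fixed. Nor does it hold for *Dvl2*, where absent ranks were placed at the cut. *Vangl2* had 0 peaks in the cut list of E14.5 replicate 1 against 3 in each of the others, and *Celsr2* had 2.00 peaks in that of E14.5 replicate 2 against 3 in each of the others. The *Celsr2* region over a coding exon had its best rank, 1944, in E16 replicate 1, against 2900 to 3019. The *Dvl2* start site had its best rank, 19532, in E16 replicate 1, with 22613 in E14.5 replicate 2 and no place in the other cut lists. The *Scrib* region at 16.2 kb had its lowest rank, 17219, in E14.5 replicate 2, against 7506 to 8504.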

How the results depend on the processing

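All 8 called regions kept their call when peaks were merged at 0 bp. With start sites of all transcripts, the *Vangl1* region at 31.2 kb and the *Scrib* region at 16.2 kb were no longer assigned to these genes. Regions then numbered 4 higher and 3 lower (8.52% and 10.6% of all regions). Leaving out samples cannot undo a separation and can only add calls where the cut stays the same, in all regions as in these. Leaving out 1 sample moved the number of regions higher in Sox2-EGFP+ cells between 5 and 9 (9 without E14.5 Sox2-EGFP+ replicate 1, where 9.95% of all regions were higher) and lower between 3 and 5 (5 without either E16 Sox2-EGFP- replicate), the genes with more peaks between 2 and 4 (4 without E14.5 Sox2-EGFP+ replicate 1) and fewer between 1 and 2 (2 without E16 Sox2-EGFP- replicate 2), and the regions higher at E12 between 3 and 8 (8 without E12 replicate 2, which lengthened the cut to 13817 peaks and left 24.2% of all regions higher) and lower at 1. The numbers by cell type (39, 19 and 4) cannot move in this way, since each region had at least 2 samples of a type. Higher and lower regions against 5 and 3 numbered 3 and 1 with -log10 q of at least 5 (6.63% and 6.94% of all regions). In uncut lists they numbered 12 and 1 (11.2% and 2.72% of all regions), with the *Dvl2* start site reversed (-0.40). With lists cut to the shortest of 9, at 7577 peaks, they numbered 1 and 1 (4.00% and 4.03%). With all 9 samples at that cut they numbered 0 and 0 (1.57% and 2.23%). Lower regions numbered 5 without both E16 samples numbered 1 (18.9% of all regions). Without the 3 E16 samples with a contrary cell type tag, chosen after seeing the data, regions numbered 8 and 11 (3 samples against 1; 16.1% and 29.0% of all regions) and genes with fewer peaks 2. Genes with more and fewer peaks against 2 and 1 numbered 5 and 0 in uncut lists (*Ptk7* no longer lower), 0 and 0 with lists cut to the shortest of 9, 1 (*Vangl1*) and 1 (*Ptk7*) when ranked by fold enrichment, and 4 and 0 by regions in place of peaks, chosen after seeing the data. Stage calls against 3 and 1 were 0 lower when ranked by fold enrichment (4.33% of all regions) and 1 higher with -log10 q of at least 5 (5.83%). In uncut lists they were 0 higher and 20 lower (0.0290% and 21.7% of all regions). Regions in Sox2-EGFP+ lists alone numbered 20 in cut lists (38.0% of all regions). Those in Sox2-EGFP- lists alone numbered 2 with -log10 q of at least 5 (5.01% of all regions). With a replicate block of 3 same-numbered pairs, in which a call asks for the same sign in every pair, regions numbered 9 and 4 and genes 4 and 1; the study collected the E16 cell types in parallel and sequenced both E16 samples numbered 1 apart, but no source used here says that a number marks a litter, and E16 samples of the same number had a correlation of deviations of 0.188 in the only stage where it could be checked. The cause of these shifts was not tested beyond the lengths and samples named, and list length, with no reads to scale by, limits every comparison.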
